A study of Mus musculus with 7 samples.

Results

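The transcripts followed here mark the wall of brain vessels and number 10 of the 50686 genes listed for every library: Cldn5, Pecam1, Cdh5, Mcam, Flt1, Kdr, Tek, Vwf, Pdgfrb and Rgs5. They were taken by gene symbol, and they serve here as a check of how much vascular RNA travelled with sorted microglia. The libraries came from microglia of C57BL/6 male mice, sorted as CD11b+ CD45low cells that also stained for Bodipy, a dye of neutral lipid, 4 days after transient occlusion of the middle cerebral artery. The 4 young mice were 3 to 4 months old (animal codes 14C, 18C, 23C and 29C) and the 3 old mice were 21 to 22 months old (2posI, 3posI and 4posI). Every mouse had received the ischemia and no drug, so age was the only difference between the groups that the labels give, and each library was named for its own animal. Forebrains were dissociated with papain and depleted of myelin before sorting, and the sort did not use an endothelial or mural marker.

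Endothelial cells line the vessel and seal it with tight and adherens junctions, and in brain these junctions form the blood-brain barrier. Pericytes lie on the outside of the capillary within the same basement membrane and are held there by platelet-derived growth factor signaling from the endothelium. Vascular endothelial growth factor (VEGF) and angiopoietins act on receptor kinases of the endothelium and govern sprouting, permeability and quiescence, and these pathways are engaged in the days after a stroke. Some of the 10 genes have other known sources: Pecam1 is also carried by platelets and leukocytes, Vwf by megakaryocytes and platelets, and Flt1 by monocytes and macrophages. In bulk RNA, fewer cells of a type and less RNA per cell cannot be told apart.

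The microglial identity of the libraries was checked on 11 marker genes, whose summed level lay between 7032 TPM (a level scaled for transcript length and library total) in 3posI and 20569 TPM in 18C. The summed level of the 10 vascular genes was 0.185% to 0.672% of that figure. Total expected counts, which are the estimated reads per gene, ran from 36574083 to 53002386 per library, and all 10 genes exceeded 10 counts in every library. The smallest value was 19 counts, for Pdgfrb in 4posI. 3posI and 23C stood apart from their groups for markers of other cells, so results that rest on them are also given without them. All 10 genes were therefore detectable at this depth in cells selected as microglia.

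Promoters of 3 genes are shown because these genes carry the contrasts described below: Cldn5 was the most abundant, and the VEGF receptors Flt1 and Kdr went opposite ways in 1 library. Each stretch runs 5′ to 3′ on the gene's own strand from 250 bases before to 50 bases after the RefSeq start (GRCm38.p6), at chr16:18776597-18776896 (plus strand) for Cldn5, chr5:147725962-147726261 (minus strand) for Flt1 and chr5:75978406-75978705 (minus strand) for Kdr. Capitals mark GGAA, the core of sites for ETS transcription factors, on either strand, so that TTCC is the same core read from the other strand.
Cldn5: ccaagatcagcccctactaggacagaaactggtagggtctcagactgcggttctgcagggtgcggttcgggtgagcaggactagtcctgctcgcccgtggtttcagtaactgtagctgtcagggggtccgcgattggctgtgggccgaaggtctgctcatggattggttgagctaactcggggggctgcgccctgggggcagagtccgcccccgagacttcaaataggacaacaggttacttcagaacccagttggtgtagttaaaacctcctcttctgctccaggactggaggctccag
Flt1: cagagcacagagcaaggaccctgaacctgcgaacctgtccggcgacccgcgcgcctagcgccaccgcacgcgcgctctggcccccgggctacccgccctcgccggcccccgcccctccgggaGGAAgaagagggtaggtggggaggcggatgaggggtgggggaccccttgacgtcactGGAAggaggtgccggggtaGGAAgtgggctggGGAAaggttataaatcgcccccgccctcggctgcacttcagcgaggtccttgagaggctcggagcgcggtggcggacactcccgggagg
Kdr: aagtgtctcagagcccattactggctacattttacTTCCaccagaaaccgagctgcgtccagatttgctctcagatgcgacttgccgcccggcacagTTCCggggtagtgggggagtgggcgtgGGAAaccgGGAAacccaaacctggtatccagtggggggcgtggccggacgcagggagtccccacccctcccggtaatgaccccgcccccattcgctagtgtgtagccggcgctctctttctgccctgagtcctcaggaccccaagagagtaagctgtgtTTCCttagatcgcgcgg
These letters occurred 0 times in the Cldn5 stretch, 4 times in Flt1 and 5 times in Kdr. They are common, being present in 96.0% of 32851 promoters of the same length with a median of 3 per promoter. The longer form CCGGAA was found once in these 3 stretches, in none but Kdr (capitals do not set it apart), against 14.9% of all promoters. Promoters of 6 of the 10 genes could be matched in the RefSeq table, and the other stretches held 2 (Tek), 3 (Mcam) and 4 (Rgs5) copies of GGAA.

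Among the 10 genes the level fell steeply from the first to the others. Mean TPM over the 7 libraries was 30.0 for Cldn5, 6.44 for Pecam1, 4.38 for Flt1, 4.27 for Vwf, 3.56 for Rgs5, 2.17 for Kdr, 1.11 for Mcam, 0.793 for Cdh5, 0.783 for Tek and 0.591 for Pdgfrb. Cldn5 exceeded Pecam1 in 7 of 7 libraries, and Pecam1 exceeded Flt1 in 7 of 7. Kdr exceeded Mcam in 6 of 7 and Tek exceeded Pdgfrb in 6 of 7. The remaining neighbors changed places between libraries: Flt1 was above Vwf in 4 of 7, Vwf above Rgs5 in 4, Rgs5 above Kdr in 5, Mcam above Cdh5 in 4 and Cdh5 above Tek in 4, so their order did not stand clear of the spread.

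**Figure D1:**
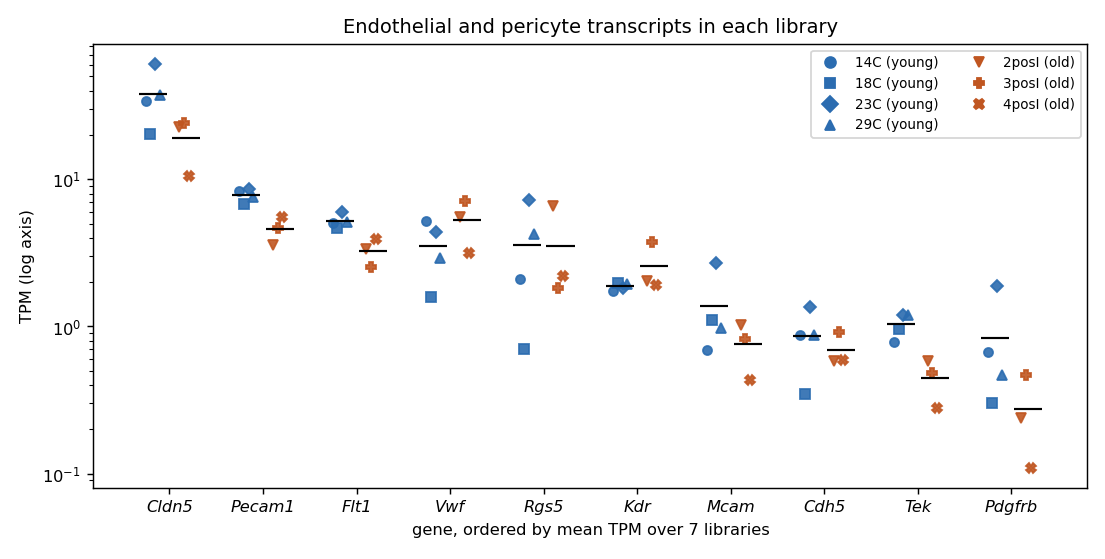
Level in TPM on a log axis (y) of the 10 vascular genes (x) in each library, with 1 symbol per mouse, young in blue and old in orange, and black bars for group means. Cldn5 lies above the other genes, the young library 23C (diamonds) holds the highest value of 7 genes, and the ages separate for Pecam1, Flt1 and Tek.

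Across the set, none of the 10 genes passed the test of age. In edgeR's quasi-likelihood test over 17559 genes, 0 of the 10 had a Benjamini-Hochberg adjusted p under 0.05, where 0.803% of all genes did (0.233% lower in old mice). By limma-voom 0 of 10 passed, and by DESeq2 1 of 10 (Pecam1), against 7.99% of all genes. At an unadjusted p under 0.05 there were 2, Pecam1 and Tek, both lower in old mice, against 18.9% of all genes in either direction and 8.79% lower in old mice. The fitted log2 fold change of old over young was below 0 for 7 of the 10 genes and for 51.2% of all genes, with a median of -0.38 for the 10 and -0.01 for all genes. Without 23C the split was 5 below and 5 above 0 and the median -0.06.

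On the scale of CPM (counts scaled to the library total by the trimmed mean of M-values method, TMM, and not to length), the 3 old libraries lay entirely below the 4 young ones for 1 of the 10 genes, Pecam1, a pattern shown by 9.07% of all genes. In TPM this held for 3 of the 10, Pecam1, Flt1 and Tek, and for 11.2% of all genes. Neither count is given a test of its own. With 3 mice against 4, an exact permutation test of a single gene cannot give a two-sided p below 0.0286.

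The junction gene Cldn5 (ENSMUSG00000041378, chr16:18776847-18778262, plus strand of GRCm38, a single exon) encodes claudin-5, the main tight junction protein of brain endothelium. It measured 34.28, 20.43, 60.53 and 37.19 TPM in 14C, 18C, 23C and 29C, and 22.79, 24.01 and 10.58 TPM in 2posI, 3posI and 4posI. The lowest young library, 18C, fell among the old ones, and 4posI was the lowest of all. In CPM, the young mean was 37.6 ± 16.2 (SD, n = 4) and the old mean 20.5 ± 8.94 (SD, n = 3). Age gave a log2 fold change of -0.88 (SE 0.42, 95% interval -1.82 to 0.07, edgeR adjusted p = 0.297), which did not pass, and leaving out any 1 library gave -1.09 to -0.56.

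Pecam1 (ENSMUSG00000020717, chr11:106654217-106750628, minus strand) encodes the adhesion molecule CD31 at contacts between endothelial cells. It had 8.38, 6.84, 8.58 and 7.52 TPM in the young libraries, in the order 14C, 18C, 23C and 29C that is used from here on. The old libraries, in the order 2posI, 3posI and 4posI, had 3.57, 4.67 and 5.50 TPM. The highest old library stayed under the lowest young one, and the young libraries were close together. Its CPM averaged 17.6 ± 2.08 (SD, n = 4) at the young age and 10.95 ± 1.97 (SD, n = 3) at the old age. For Pecam1 the log2 fold change was -0.69 (SE 0.18, 95% interval -1.08 to -0.29), with an unadjusted edgeR p of 0.0039 and an adjusted p of 0.102 over all genes. DESeq2 gave an adjusted p of 0.0122 for the same gene. With 1 library left out at a time the value stayed between -0.79 and -0.54.

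Cdh5 (ENSMUSG00000031871, chr8:104101625-104144511, plus strand), the VE-cadherin of endothelial adherens junctions, was near 1 TPM. Its values were 0.87, 0.35, 1.36 and 0.88 TPM in young mice and 0.58, 0.92 and 0.59 TPM in old mice. The old values all fell inside the young range. Its log2 fold change was -0.24 (SE 0.43, 95% interval -1.22 to 0.74, edgeR adjusted p = 0.8) and became 0.04 without 23C.

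Mcam (ENSMUSG00000032135, chr9:44134469-44142727, plus strand) encodes CD146, an adhesion molecule that both endothelial cells and pericytes carry. Young libraries gave 0.69, 1.10, 2.72 and 0.97 TPM and old libraries 1.03, 0.82 and 0.43 TPM. The ages overlapped and 23C was far above the rest. Here the log2 fold change was -0.53 (SE 0.58, 95% interval -1.85 to 0.80, edgeR adjusted p = 0.661), turning to 0.13 without 23C. Mcam shares 17 exon bases with the antisense gene Gm10687, which had at most 2 expected counts in any library, and the library kit did not keep strand.

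The VEGF receptors parted in 3posI. Flt1 (ENSMUSG00000029648, chr5:147561604-147726011, minus strand) encodes VEGFR-1, which also exists as a soluble form that traps ligand. In CPM it measured 15.4, 14.5, 16.1 and 18.6 in young mice and 17.6, 9.69 and 16.5 in old mice, with 3posI alone below the rest. The log2 fold change of the counts was -0.15 (SE 0.22, 95% interval -0.64 to 0.35, edgeR adjusted p = 0.756) and 0.08 without 3posI. In TPM the same gene had 5.04, 4.64, 6.04 and 5.12 in young and 3.34, 2.55 and 3.93 in old mice, so that the ages no longer overlapped. With the effective length of the gene in each library as an offset, the log2 fold change was -0.57 (edgeR adjusted p = 0.142), and limma on log2(TPM + 0.5) gave -0.61 (adjusted p = 0.192). Neither passed.

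The difference between the 2 scales of Flt1 went with the listed length, the mean over its transcripts weighted by their estimated abundance. That length was 4309, 4548, 3806 and 4791 bases in young mice and 6485, 4877 and 6035 bases in old mice, higher in every old library. Listed lengths that did not overlap between the ages, in either direction, were found for 19.3% of the 11768 tested genes with more than 1 transcript. The annotation holds a Flt1 transcript of 30 exons and 6895 bases, one of 13 exons and 6292 bases, and 4 shorter ones of 274 to 2049 bases. Gene-level values do not show which of them was present.

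Kdr (ENSMUSG00000062960, chr5:75932827-75978458, minus strand) encodes VEGFR-2, the receptor through which VEGF drives endothelial growth. It measured 1.75, 1.98, 1.82 and 1.95 TPM in young mice, the narrowest young spread of the set (coefficient of variation of CPM 7.72%). Old mice had 2.05, 3.75 and 1.90 TPM, with 3posI well above all others. Its log2 fold change was 0.56 (SE 0.26, 95% interval -0.05 to 1.16, edgeR adjusted p = 0.301), and 0.15 without 3posI. The ratio of Flt1 to Kdr expected counts was 1.79 to 2.12 in the 6 other libraries and 0.558 in 3posI. Leukocyte markers were also at their highest in 3posI, with a summed 674 TPM against 9.0 to 286 TPM elsewhere, and their part in the ratio was not tested.

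**Figure D2:**
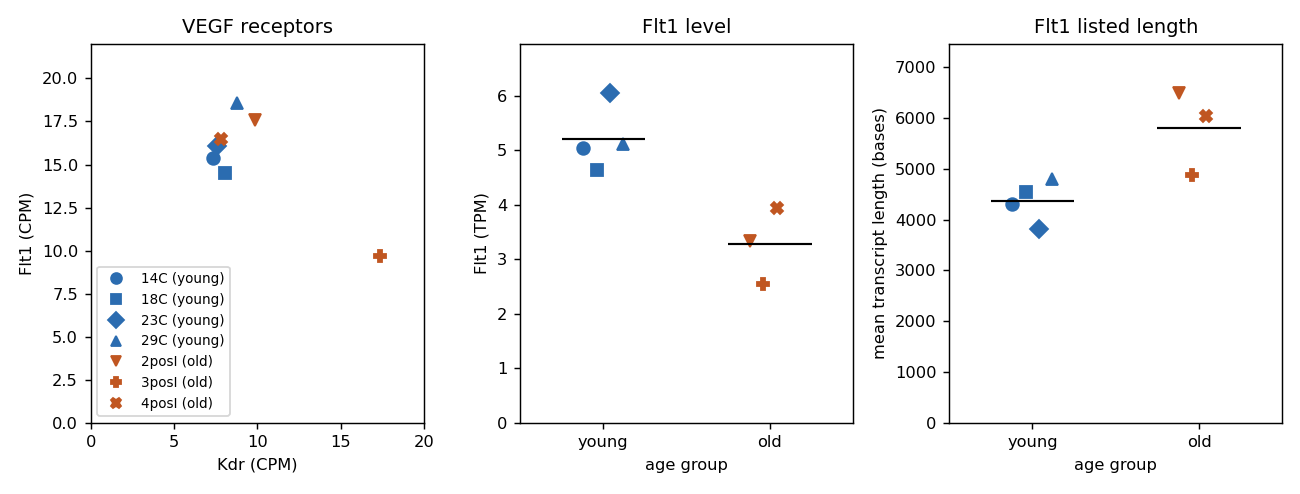
Left, CPM of Flt1 (y) against CPM of Kdr (x) in the 7 libraries. Middle and right, Flt1 level in TPM and Flt1 listed length in bases (y) by age group (x), with 1 symbol per mouse and black bars for group means. 3posI lies apart at 9.69 CPM of Flt1 and 17.4 CPM of Kdr, and the old libraries are lower in TPM and higher in length.

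Tek (ENSMUSG00000006386, chr4:94739289-94874976, plus strand) encodes TIE2, the angiopoietin receptor that keeps vessels quiescent. Young libraries had 0.79, 0.96, 1.19 and 1.2 TPM and old libraries 0.58, 0.48 and 0.28 TPM. No old library reached the lowest young one in TPM, whereas in CPM 2posI (2.18) passed 18C (2.06). The log2 fold change was -0.99 (SE 0.39, 95% interval -1.89 to -0.09), with an unadjusted edgeR p of 0.0343 and an adjusted p of 0.223. Leaving out any 1 library gave -1.29 to -0.70.

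Vwf (ENSMUSG00000001930, chr6:125546774-125686679, plus strand) encodes von Willebrand factor, which endothelium stores and releases for platelet adhesion. It measured 5.22, 1.58, 4.36 and 2.94 TPM in young mice and 5.58, 7.07 and 3.14 TPM in old mice. The ages overlapped, and 18C was the lowest. Its log2 fold change was 0.43 (SE 0.40, 95% interval -0.49 to 1.35, edgeR adjusted p = 0.598) and -0.03 without 3posI. Its listed length was 1638 to 2931 bases in the 7 libraries, far short of the 8834 bases of the 52-exon transcript, so its TPM rests mainly on the shorter annotated transcripts as RSEM assigned them.

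Pdgfrb (ENSMUSG00000024620, chr18:61045150-61085061, plus strand) encodes the receptor by which pericytes respond to endothelial PDGF-B, and it was the lowest of the 10. Its values were 0.67, 0.30, 1.88 and 0.47 TPM in young mice and 0.24, 0.47 and 0.11 TPM in old mice. The ages overlapped, and the highest and lowest libraries, 23C and 4posI, differed 17.1-fold. The log2 fold change of -1.49 was the largest in size among the 10 and also the least certain (SE 0.72, 95% interval -3.13 to 0.16, edgeR adjusted p = 0.308). It was -0.72 without 23C and -2.15 without 3posI.

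Rgs5 (ENSMUSG00000026678, chr1:169655501-169695813, plus strand), a regulator of G protein signaling that is abundant in brain pericytes, gave no steady direction. It measured 2.09, 0.70, 7.28 and 4.24 TPM in young mice and 6.58, 1.82 and 2.19 TPM in old mice. Both ages held high and low libraries. The log2 fold change was 0.31 (SE 0.70, 95% interval -1.28 to 1.90, edgeR adjusted p = 0.843), -0.61 without 2posI and -0.02 without 18C. The pericyte genes therefore did not share a sign, with Pdgfrb at -1.49 and Rgs5 at 0.31, and neither passed.

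**Figure D3:**
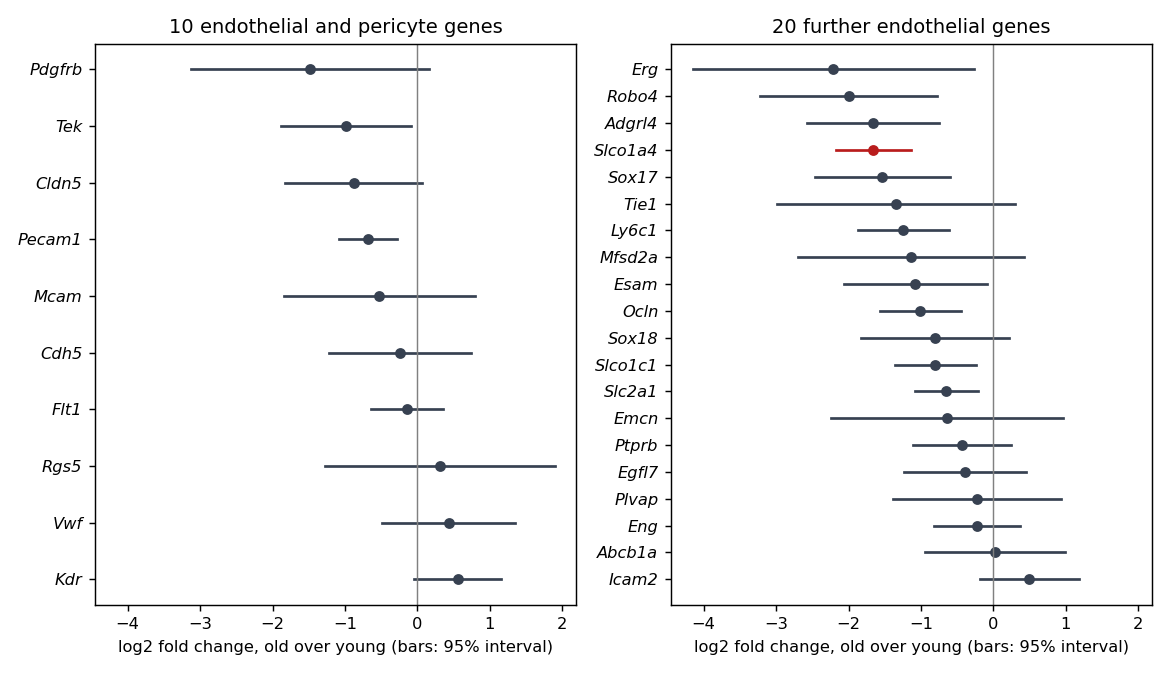
Log2 fold change of old over young from edgeR (x) for the 10 vascular genes (left) and 20 further endothelial genes (right), with bars for the 95% interval and red for an adjusted p under 0.05. The intervals of Pecam1 and Tek among the 10 leave out 0 but neither gene passed, and Slco1a4 is the 1 red gene.

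The 10 genes varied together only in part. The highest TPM was found in 23C for 7 genes, in 3posI for 2 (Kdr and Vwf) and in 29C for 1 (Tek), and the lowest in 4posI for 4 and in 18C for 3. Their summed level was 59.8, 38.9, 95.8 and 62.5 TPM in young mice and 46.3, 46.6 and 28.7 TPM in old mice, with 18C below 2 of the 3 old libraries. Of the 45 pairs of genes, 11 had a Pearson r of log2 CPM above 0.7 and 10 had one below 0 (n = 7 libraries of both ages, which share their depth and their outliers). Cldn5 went with Pdgfrb (r = 0.95) and Tek (r = 0.93). For Flt1 and Kdr the Pearson r was -0.79, but the rank-based Spearman rho was 0. Only 3posI had a ratio of Flt1 to Kdr counts (0.558) outside 1.79 to 2.12.

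Ratios within a library showed the same unevenness. The expected counts of Tek were 0.0653 to 0.106 of those of Cldn5 in all 7 libraries. Rgs5 ranged more widely, at 0.179, 0.102, 0.285 and 0.294 of Cldn5 in young mice and 0.856, 0.225 and 0.597 in old mice. Pdgfrb, the other pericyte gene, was 0.0405 to 0.122 of Cldn5, and the endothelial gene Pecam1 0.342 to 1.22 of it. The spread of these ratios did not sort the genes by cell type.

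The genes whose log2 CPM ran most like that of Cldn5, among 12173 genes with a mean of at least 1 CPM, were Plat (tissue plasminogen activator, r = 0.994), Parva (r = 0.985), Hspb8 (r = 0.982), Esam (an endothelial adhesion molecule, r = 0.981) and Ash2l (r = 0.981). For Rgs5 they were Kif5c (r = 0.974), E2f6 (r = 0.974), Timp2 (r = 0.969), Slc7a4 (r = 0.967) and Procr (the endothelial protein C receptor, r = 0.954). These values describe 7 libraries and have no test. With so few libraries, 82 genes exceeded an r of 0.9 with Cldn5 and 27 with Rgs5.

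A second list of 20 endothelial genes, covering transporters, junctions, receptors and transcription factors, leaned further to the young side. Of the 20, 18 had a log2 fold change below 0, with a median of -0.91, and 10 had an unadjusted edgeR p under 0.05, all lower in old mice, as had 8.79% of all genes. The list was chosen with earlier results of these data known, and its genes share the same 7 libraries. The count is therefore not a test. Their summed TPM lay between 224 and 262 in the young libraries and between 129 and 167 in the old ones, with no overlap. Slc2a1 alone made up 39.7% to 55.6% of this sum, and the other 19 genes summed to 100.2 to 143 TPM against 68.7 to 86.0 TPM. Of these sums, Eng held 49.67 of the 100.2 TPM in 18C and 17.27 of the 68.7 TPM in 3posI. The separation of the ages by summed TPM therefore leans on Slc2a1 and Eng. As a share of the summed microglial markers the ages overlapped, at 1.62%, 1.09%, 1.71% and 1.41% in young and 0.862%, 2.20% and 1.08% in old mice, highest in 3posI, where those markers were lowest. After adjustment 1 of the 20 passed in edgeR, 1 in limma-voom and 8 in DESeq2, beside 0.803% of all genes in edgeR and 7.99% in DESeq2. With any 1 library left out, 17 to 19 of the 20 stayed below 0 and the median ran from -1.08 to -0.70.

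The gene that passed was Slco1a4, an organic anion transporter of the blood-brain barrier. It fell from 5.09, 3.04, 4.98 and 5.22 TPM in young mice to 1.2, 1.26 and 0.96 TPM in old mice. Each old library was far below each young one, and the log2 fold change was -1.66 (SE 0.23, 95% interval -2.17 to -1.14, edgeR adjusted p = 0.0280). Across fits without 1 library it ran from -1.78 to -1.57, and the adjusted p stayed under 0.05 only without 3posI (0.0388). It was 0.0564 to 0.121 in the 6 other fits: without 14C 0.121, without 18C 0.0777, without 23C 0.0658, without 29C 0.0746, without 2posI 0.0999 and without 4posI 0.0564.

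The 4 most abundant genes of that list did not pass. Ly6c1, a surface protein of brain endothelium, had 32.41, 15.88, 32.93 and 33.56 TPM in young and 9.11, 12.21 and 12.82 TPM in old mice (log2 fold change -1.24, SE 0.28, edgeR adjusted p = 0.0768, DESeq2 0.00134). Slc2a1, the glucose transporter GLUT1 of the barrier and of many other cells, had 136.87, 123.51, 99.79 and 125.60 TPM in young and 51.20, 85.96 and 80.86 TPM in old mice (log2 fold change -0.65, SE 0.19, edgeR adjusted p = 0.132, DESeq2 0.0324). For both, no old library overlapped the young ones. Eng, an endothelial receptor of the TGF-beta family, overlapped between the ages (log2 fold change -0.23, edgeR adjusted p = 0.673, and 0.06 without 3posI), as did Egfl7, a secreted endothelial factor (-0.39, edgeR adjusted p = 0.604). In CPM, Eng was highest in 18C (102.9) and 4posI (93.9), the libraries with the lowest Cldn5. It was lowest in 3posI (41.2), where the summed microglial markers were also lowest. The cell source of Eng was not tested.

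The 14 further mural genes, those of pericytes and vascular smooth muscle, were split between the directions. Of these, 7 had a log2 fold change below 0 and 7 above 0 (median 0.07), but the split was 3 below and 11 above without 23C (median 0.34), 4 and 10 without 4posI or in limma-voom, and 8 and 6 without 18C or 2posI. In the test, none passed in edgeR or limma-voom, and 1 passed in DESeq2, where 7.99% of all genes did. DESeq2 gave no adjusted p for Higd1b. An unadjusted edgeR p under 0.05 was found for 3, and for 18.9% of all genes. Their sum ranged over 21.5 to 45.4 TPM at the young age and 28.9 to 38.7 TPM at the old age. Cspg4 led the list with a mean of 12.9 TPM, against 0.591 TPM for Pdgfrb, and both were highest in 23C. In 4posI, where Pdgfrb was lowest (0.11 TPM), Cspg4 held 15.84 and Art3 9.56 of the summed 38.7 TPM. The sum therefore leans on a few genes, and their cell source was not tested. Cspg4, the NG2 proteoglycan, had 13.31, 12.14, 21.72 and 14.81 TPM in young and 7.41, 5.08 and 15.84 TPM in old mice (log2 fold change -0.93, SE 0.35, edgeR adjusted p = 0.201). Anpep, the aminopeptidase CD13 of pericytes and myeloid cells, went the other way with 2.67, 1.02, 5.63 and 1.88 against 4.57, 14.08 and 5.87 TPM (log2 fold change 1.31, SE 0.45, edgeR adjusted p = 0.172, DESeq2 0.0467), and was 0.73 without 3posI. Vtn (0.14, SE 0.59, edgeR adjusted p = 0.921) and Art3 (0.43, SE 0.60, edgeR adjusted p = 0.743) did not pass. Each turned negative when a library was left out, Vtn without 2posI (-0.32) or 18C (-0.15) and Art3 without 4posI (-0.58).

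Ligands and coreceptors of the vascular receptors were also measured, as 12 genes of which 7 had a log2 fold change below 0 and 5 above 0 (median -0.10). This split turned to 3 below and 9 above without 23C (median 0.16) and to 5 and 7 without 2posI (median 0.04). None passed in edgeR or limma-voom, and 1, Vegfa, had an unadjusted edgeR p under 0.05 (18.9% of all genes did). None passed in DESeq2, which gave no adjusted p for Vegfa, Vegfc and Angpt1. With no filter on low counts, 1 of the 12 passed in edgeR, where 288 of all genes did. The VEGF coreceptors Nrp1 (log2 fold change 0.06, edgeR adjusted p = 0.9) and Nrp2 (-0.11, 0.847) and the PDGF chains Pdgfa (0.38, 0.265) and Pdgfb (0.64, 0.355) were the most abundant. Nrp1 was -0.25 without 3posI and -0.0026 without 18C, Nrp2 was 0.13 without 23C and 0.04 without 2posI, and Pdgfb was 0.09 without 4posI. Vegfa, chosen after its values were seen, had 1.03, 0.37, 0.73 and 0.42 TPM in young and 1.16, 16.45 and 1.80 TPM in old mice (log2 fold change 3.56, edgeR adjusted p = 0.0973, and 1.44 without 3posI). Every old library was above the young ones, and 3posI, the library with the highest Kdr, was far above the rest.

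Markers of other cells moved in some of the same libraries. The 6 fibroblast genes of the vessel sheath all had a log2 fold change below 0 (median -2.53). Of the 6, 0 passed in edgeR and limma-voom and 1 in DESeq2, where 7.99% of all genes did. An unadjusted edgeR p under 0.05 was found for 4 (8.79% of all genes were lower in old mice at that level). Without 23C the median was -1.36 with 5 of 6 below 0, without 3posI it was -4.00, and without 4posI 5 of 6 were below 0 (median -2.13). Their sum was 26.6, 14.8, 116 and 20.7 TPM in young and 3.8, 17.8 and 4.24 TPM in old mice, highest in 23C, the library with the highest value of 7 vascular genes. The collagen gene Col1a1 (24.82 TPM in 23C against 0.03 to 6.85 elsewhere) and the proteoglycan gene Dcn (43.37 against 2.61 to 9.85) were among its members. The 5 astrocyte genes summed to 57.4 TPM in 23C and 53.4 TPM in 2posI, against 7.87 to 21.2 TPM in the others. What part these markers had in the vascular values was not tested.

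Sums of blood cell markers gave other orders of libraries. The 5 platelet genes summed to between 5.72 and 18.4 TPM in the young libraries and between 4.4 and 11.9 TPM in the old ones, lowest in 3posI and 23C. Most of this sum was 1 gene, Gp9 (mean over the 7 libraries 9.02 TPM), while the platelet gene Ppbp was highest in 3posI (1.04 TPM against 0.03 to 0.61 elsewhere). Gp9 was highest in 18C (17.15 TPM) and lowest in 3posI (2.30 TPM) and 23C (3.99 TPM). The summed microglial markers had the same extremes (20569, 7032 and 14242 TPM). Whether Gp9 came from platelets was not tested. Red cell genes summed to 487 to 903 TPM in young mice and to 495 to 1819 TPM in old mice, highest in 2posI, the library with the lowest Pecam1. Leukocyte genes ran from 9.0 to 286 TPM at the young age and from 102 to 674 TPM at the old age. All 7 had a positive log2 fold change (median 3.24, and 0.65 without 3posI), and none passed the edgeR test. At an unadjusted edgeR p under 0.05 there were 4, where 18.9% of all genes were. By DESeq2 2 of the 7 passed, where 7.99% of all genes did, but it gave no adjusted p for Ccr2, Cd3e and Cd79a. Neuron genes (0.87 to 2.76 TPM), oligodendrocyte genes (22.0 to 33.5 TPM) and border macrophage genes (28.2 to 236 TPM) overlapped between the ages. None of these, nor any astrocyte, platelet, red cell or microglial gene, passed in edgeR. At an unadjusted p under 0.05 were 1 oligodendrocyte and 1 microglial gene, which is also their count by DESeq2, and 0 of the neuron, astrocyte, platelet, red cell and border macrophage genes, with 0 by DESeq2. Of the tested genes of these lists, Ppbp and Stmn2 had no adjusted p in DESeq2. Of the 11 microglial markers, 7 had a log2 fold change below 0 (median -0.28), and 5 without 3posI (median 0.06) or 18C (median 0.01). Among the most abundant genes behind these sums were Gp9 among platelet genes, Hba-a2 among red cell genes, Ly6c2, S100a8 and Ccr2 among leukocyte genes, Rbfox3 among neuron genes, Mbp and Mag among oligodendrocyte genes, Gfap and Gja1 among astrocyte genes, Cbr2 among border macrophage genes, and Fcrls, Csf1r and Aif1 among microglial genes. No list apart from the second endothelial one had a gene that passed in edgeR, among 95 tested of the 100 listed genes.

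**Figure D4:**
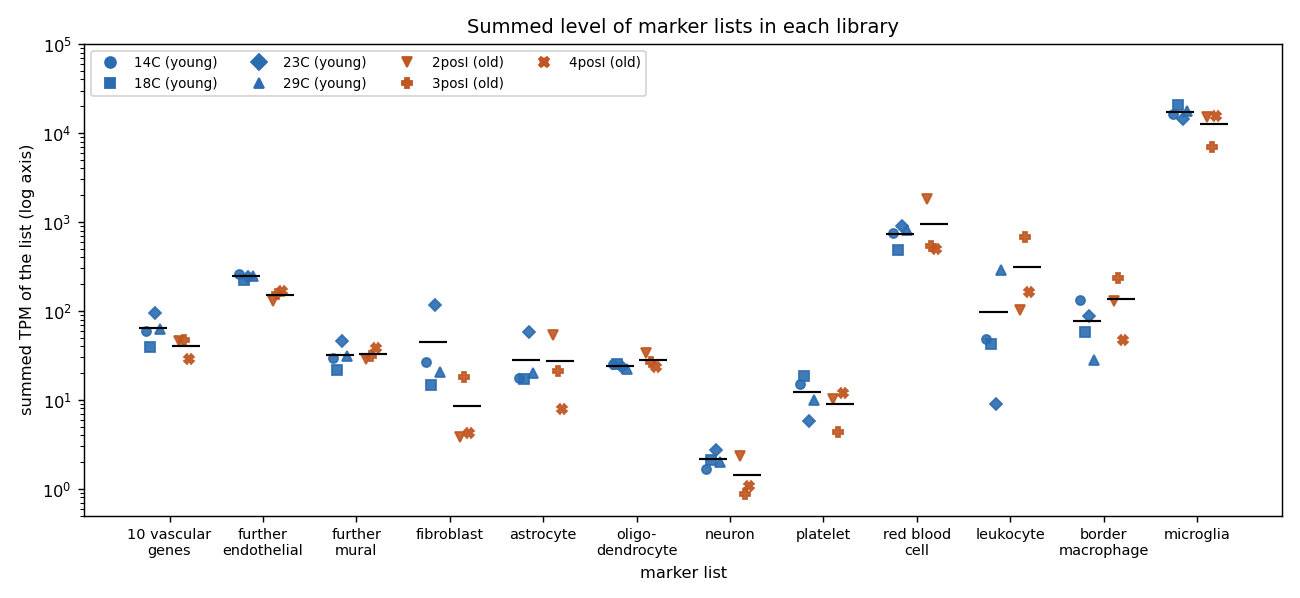
Summed TPM of each marker list on a log axis (y) for 12 lists (x), with 1 symbol per mouse, young in blue and old in orange, and black bars for group means. The further endothelial genes separate by age (224 to 262 against 129 to 167 summed TPM), the 10 vascular genes overlap, and microglial markers exceed both by far in every library. Slc2a1 and Eng have the highest mean TPM of the further endothelial genes.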

How the data were processed

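RNA-seq libraries of sorted Bodipy+ microglia from 4 young and 3 old ischemic mice were made by a non-stranded low-input Smart-seq2 protocol, 1 library per mouse. The authors used skewer for trimming, STAR for alignment to GRCm38 and RSEM for quantification of GENCODE m15 genes (FastQC 0.11.5, per the labels). The deposited expected counts are RSEM's estimated counts, not normalized. TPM values as deposited are scaled by the authors for effective length and library total. The authors' FPKM values were not used here. Listed and effective lengths are RSEM's, per library.

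Genes with more than 10 expected counts in at least 1 library were kept (18173), 614 genes of X, Y and the mitochondrial genome were removed, and 17559 were tested on rounded counts. edgeR 4.0.16 in R 4.3.3 (TMM factors 0.952 to 1.05, quasi-likelihood test, Benjamini-Hochberg adjustment) compared old with young and called 141 genes at an adjusted p of 0.05. Log2 CPM used a prior count of 1. limma 3.58.1 and DESeq2 1.42.0 were alternatives. The biological coefficient of variation was 37.2%. On counts simulated for this comparison over 17559 genes with 200 changed, edgeR recovered 47% (9% of 2-fold and 85% of 4-fold changes), and 3.09% of its calls were false. The simulation gave every gene the same dispersion and held no outlier library, so these rates need not hold for the measured genes.

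The 10 genes and the 12 further lists were chosen with earlier results of these data known. All 10 are named. Of each other list, the rule named genes past the threshold and the 4 with the highest mean TPM (of lists of other cells, some of the leading ones are given, and 1 is not reported here), and for Cldn5 and Rgs5 the 5 genes of highest Pearson r. Positions and transcripts come from GENCODE vM21, in which 50462 of 50686 identifiers were found. The p-values measure the spread between these mice only. Reads carry no molecular identifiers. Labels and methods name different RNA extraction kits.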

Additional observations from a re-analysis of the deposited data

Results flagged for a closer look

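Within groups of 4 libraries, a highest or lowest value was marked where its gap to the nearest other library exceeded the 95% critical value of Dixon's test for 4 samples. This was met in 6 of the 28 young groups examined, where about 1.4 would be expected for normal values in independent groups. The groups shared the same 4 libraries, so the count is not a test. Vwf in CPM was low in 18C (2.95 against 6.47 to 6.84, gap 0.905 of the range). Ly6c1 in CPM was low in 18C (gap 0.906) and Eng in CPM high in 18C (gap 0.847). Summed fibroblast markers were high in 23C (116 TPM, gap 0.883), as were summed astrocyte markers (57.4 TPM, gap 0.937). Summed leukocyte markers were high in 29C (286 TPM, gap 0.857). Groups of 3 libraries, the old ones, were not examined in this way.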

How the results depend on the processing

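The 10 vascular genes were refitted under 17 alternatives each. Of the 170 fits, 163 kept direction and side of the threshold, 6 reversed and 1 passed (Pecam1 in DESeq2). The reversals all came from leaving out 1 library: Cdh5 0.035 and Mcam 0.13 without 23C, Flt1 0.079 and Vwf -0.033 without 3posI, Rgs5 -0.017 without 18C and -0.61 without 2posI. Over all fits without 1 library the log2 fold changes ran from -0.48 to 0.035 for Cdh5, -0.85 to 0.13 for Mcam, -0.30 to 0.079 for Flt1, -0.033 to 0.74 for Vwf and -0.61 to 0.79 for Rgs5. Eng ran from -0.46 to 0.056, the latter without 3posI. The count of the 10 that passed was 0 in the main test and 1 by DESeq2. It was 0 to 0 over the fits without 1 library. Over all genes, 141 passed in edgeR, against 1403 by DESeq2, 67 on log2(TPM + 0.5), 71 on log2(TPM + 0.1), 213 with an effective-length offset and 288 with no filter on low counts. It was 1 to 159 with 1 library left out (1 without 14C, 18C or 2posI, 2 without 29C, 14 without 23C, 85 without 4posI). Of the listed genes, 1 passed in edgeR and 14 by DESeq2, where 0.803% and 7.99% of all genes did. It was 2 with the length offset, 4 without the filter and 0 to 3 with 1 library left out. These last alternatives for the lists were added after the data were seen. The causes were not tested. No paired analysis was possible because the labels give no replicate numbers shared between ages. For genes near 1 TPM such as Pdgfrb, the smallest count of 19 limits the precision.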

Other observations

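Mcam, like Flt1, had listed lengths that did not overlap between the ages, at 1606 to 2932 bases in the young and 2942 to 2989 bases in the old libraries, with 18C far below the other libraries. Cldn5 and Pdgfrb had the same listed length in every library (1414 and 5407 bases), so their TPM and CPM differ only in scaling. Pecam1 ranged from 0.342 to 1.22 of Cldn5 in expected counts, highest in 4posI, the library with the lowest Cldn5.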
